A study of Homo sapiens with 16 samples.

Results

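KG1a is an established human acute myeloid leukaemia line, a subline of KG-1 known for its immature, CD34+ cells. Its 2 vehicle arrays were compared with the 6 vehicle arrays of the AML-193, HNT-34 and HL60 lines, 2 arrays a line, among the 16 arrays of the series. The arrays were chosen by their labels alone, and each of the 3 other lines counted equally. All 4 lines grew in RPMI SILAC medium with light lysine and arginine, received the solvent DMSO every day for 3 days and were then kept for 4 days without drug. The other 8 arrays, 2 a line, came from cells given 0.5 μM AZA (azacitidine, a nucleoside that traps DNA methyltransferases) on the same schedule. They are used here to see whether the KG1a differences recur or change in a second set of cells. All 16 arrays also entered the filter, the choice of probe set and the estimate of the spread. RNA from frozen pellets was measured on the Affymetrix Human Genome U133 Plus 2.0 array, which reads each transcript with 1 or more probe sets. Vehicle KG1a cells thus differ from the rest by line and not by treatment. The labels do not tell if both arrays of a line were grown separately, so each p-value measures only the spread between these arrays, which may be technical. One line stands for KG1a and cannot stand for a class of leukaemia.

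Blood cells descend from CD34+ progenitors that lose self-renewal genes as they take up the granule, antigen-presenting, red cell or lymphoid programmes of their lineage. Leukaemia lines are arrested along that path, and each keeps its own mixture of these programmes. HL60 is known as a promyelocytic line, rich in neutrophil granule proteins, and AML-193 as a monocytic one. Interferon-stimulated genes form the antiviral programme switched on by interferon, and MHC class II molecules show peptides to helper T cells.

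Of 14038 genes tested, 8527 (60.7%) differed between KG1a and the mean of the other 3 lines in limma's moderated test at an adjusted p below 0.05. KG1a was higher for 3812 (27.2%) and lower for 4715 (33.6%). A stricter call, used below as "than each line", needed this test and the tests against AML-193, HNT-34 and HL60 singly to pass in 1 direction. It held for 2766 genes (19.7%), with 1388 higher (9.89%) and 1378 lower (9.82%) in KG1a. With at least a 2-fold difference from every line, 391 genes were higher (2.79%) and 206 lower (1.47%). The brightness filter favours the higher side. Of the genes tested, 154 reached the array median on KG1a arrays alone and passed the filter only through them. Of these, 137 were among the 1388 called higher than each line, and the higher counts and shares below include such genes. The split depends on the scaling. Centring each array on its housekeeping genes moved the median log2 difference over all genes from -0.06 to -0.27 and gave 822 genes higher and 2674 lower than each line.

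The values are log2 signals, so a difference of 1 is a 2-fold ratio. Arrays of 1 group correlated across genes at 0.995 to 0.998, and KG1a correlated with AML-193 at 0.838, with HNT-34 at 0.869 and with HL60 at 0.855. The median standard error of a KG1a difference was 0.08. The 2 AML-193 vehicle arrays stood apart in the 3′ minus 5′ signal of the control probes, a measure of RNA integrity, at 1.27 ± 0.46 (SD, n = 2) against 0.03 ± 0.13 (SD, n = 2) in KG1a. With this measure as a covariate, 994 genes were higher and 922 lower than each line. No detection call was used here, and signals near or below the array median of 6.73 are called near background; the fold of a gene that is dim on one side is compressed. Of 3 tested markers of immature myeloid cells, CD34 was higher in KG1a than in each line, at 12.46 and 12.64 against 7.55 to 11.80 elsewhere. SPINK2, at 9.37 and 9.31, and KIT, at 9.16 and 8.99, lay below HNT-34, which reached 13.37 and 10.84. CD7 lay near background at 6.40 and 6.59. Of 5 granulocytic markers, ELANE, PRTN3 and AZU1 stood between 5.04 and 5.74 and MPO at 6.94 and 6.55, while the granule protease gene CTSG stood well above background, at 10.12 and 10.35 against 10.38 to 12.85 elsewhere.

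**Figure D1:**
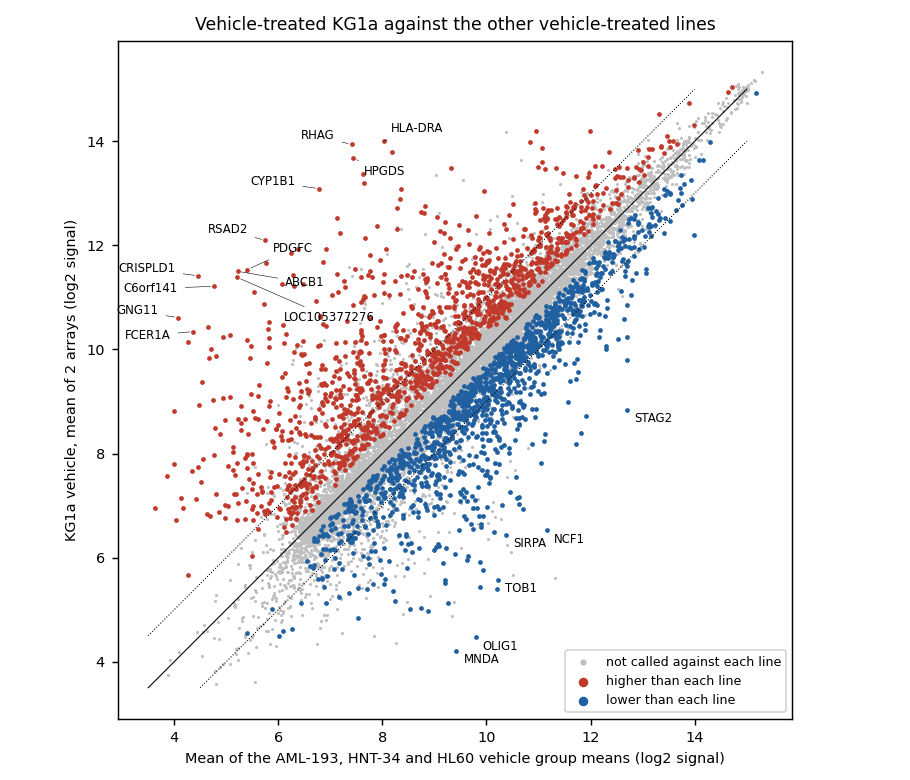
Mean log2 signal of the 2 KG1a vehicle arrays (vertical axis) against the mean of the 3 other lines' vehicle means (horizontal axis), 1 point per gene, with X-inactivation and Y-linked genes left out. The solid line marks equality, the dotted lines a 2-fold difference, and red and blue points are genes higher or lower in KG1a than in each line; the most displaced red genes lie near the background signal in the other lines.

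The leading genes were taken from those called against each line with both KG1a arrays outside all 6 other arrays, leaving out Y-linked and X-inactivation genes. That placement was part of the choice, so nothing is read from it; it held for 13.6% of all genes on the higher and 15.6% on the lower side. Within this set, the 12 genes with the largest positive differences were 62.9 to 123.9 times as bright in KG1a, and the 12 with the largest negative ones 14.5 to 39.8 times as bright in the other lines. Their adjusted p in limma's test was at most 6.38e-11. Some genes outside the set were as far or farther below the mean of the others. CSTA, the protease inhibitor cystatin A, differed by -5.71 and the granule gene AZU1 by -4.84, but their differences from HNT-34 were -0.01 and 0.00 and were not called. CRISPLD1, which encodes a secreted protein of the CAP superfamily, read 11.32 and 11.51 in KG1a. It read 4.71 and 4.88 in AML-193, 4.26 and 4.34 in HNT-34, and 4.21 and 4.37 in HL60, a difference of 6.95 ± 0.10 (SE). The gene was bright in KG1a and near background in every other line. In bulk RNA, more cells with a transcript and more of it per cell cannot be told apart. GNG11, a G protein gamma subunit, read 10.55 and 10.68 in KG1a against 3.86 to 4.26 elsewhere, a difference of 6.54 ± 0.07 (SE). RHAG, the ammonia channel of the red cell Rh complex, read 13.80 and 14.08 in KG1a against 6.88 to 8.53, highest in HNT-34 among the others. The differences were 6.45 ± 0.07 (SE) for its neighbour C6orf141 and 6.17 ± 0.08 (SE) for LOC105377276, and both were dim in the 3 other lines.

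Several of these genes were above background in a second line as well. CYP1B1, a cytochrome P450 that oxidises oestrogens and polycyclic hydrocarbons, read 13.07 and 13.10 in KG1a, 9.27 and 9.34 in HL60, and 5.47 to 5.60 in the remaining lines. HPGDS, the haematopoietic prostaglandin D synthase, read 13.66 and 13.69 in KG1a and 9.73 and 9.77 in AML-193. PDGFC, a platelet-derived growth factor ligand, read 11.51 and 11.56 in KG1a and 7.37 and 7.40 in HL60. That KG1a was highest for these 3 genes was set by the choice, but the size of its lead depended on the line. ABCB1, the multidrug efflux pump P-glycoprotein, read 11.50 on both KG1a arrays against 4.76 to 5.95 in all other lines, a difference of 6.28 ± 0.12 (SE).

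Among the genes lower in KG1a, OLIG1, a basic helix-loop-helix transcription factor, read 4.40 and 4.55 in KG1a and 8.71 to 10.39 elsewhere, a difference of -5.32 ± 0.07 (SE). STAG2, a cohesin subunit, read 8.74 and 8.94 against 12.41 to 12.95, so KG1a kept a signal above background but 14.5-fold below the mean of the others. TOB1, an antiproliferative adaptor of mRNA decay, read 5.42 and 5.73 against 9.96 to 10.41. Its 3 other lines were nearly level, with differences of -4.47 from AML-193, -4.65 from HNT-34 and -4.80 from HL60. DIAPH2, a formin, and RCAN3, a calcineurin regulator, had the same even pattern, at -4.45 and -4.14. MNDA, a myeloid nuclear antigen of the interferon-inducible HIN-200 family, did not. It read 3.97 and 4.45 in KG1a and 4.62 and 5.003 in HNT-34, but 11.61 to 11.77 in AML-193 and HL60, so its difference of -5.21 rests on those 2 lines. TRIP6 and PHLDA2 were also dim in AML-193, with differences of -1.08 and -1.13 from that line. The remaining 4 genes were NXF3 at -4.81, the oxidase subunit gene NCF1 at -4.62, the cytidine deaminase gene APOBEC3B at -3.96 and the inhibitory myeloid receptor gene SIRPA at -3.94. NCF1 has near-identical pseudogene copies that its probes may also bind. For some of these genes the bright probe sets differed in size. They stood at -4.81 and -0.49 for NXF3, at -4.14 and -1.08 for RCAN3 and at -4.64 and -2.40 for TOB1. Those of SIRPA ranged from -3.94 to -1.66.

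**Figure D2:**
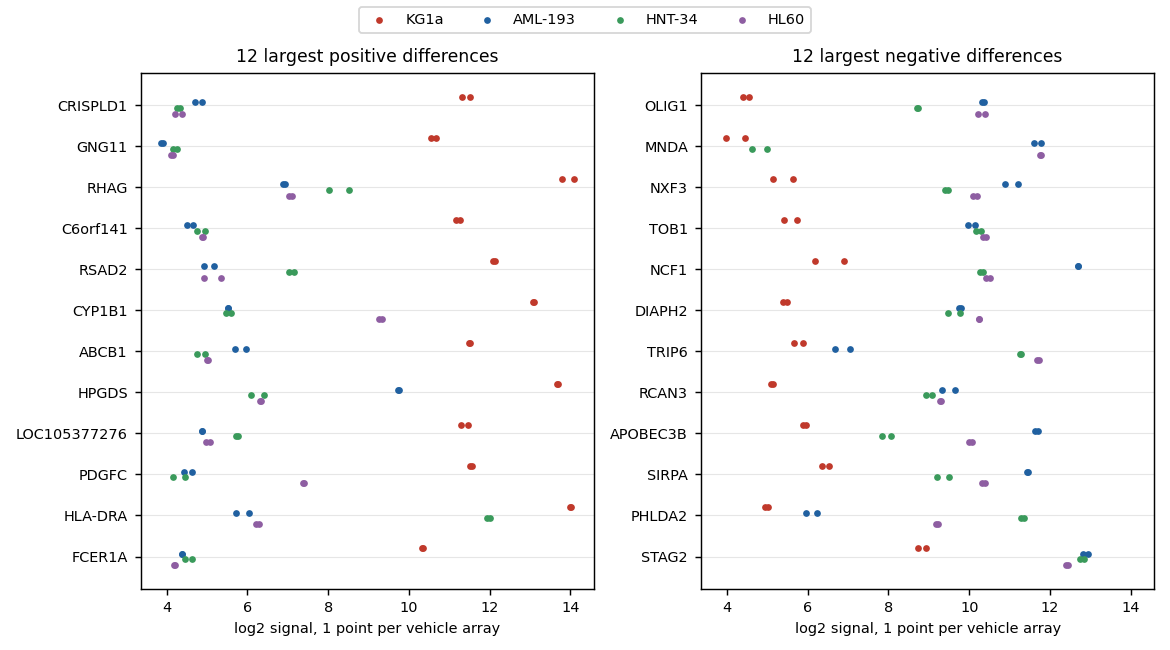
Log2 signal on each of the 8 vehicle arrays for the 12 genes with the largest positive (left) and the 12 with the largest negative differences (right) among those called against each line with both KG1a arrays outside all others, 1 point per array, coloured by line. KG1a lies to the right of every other point on the left panel and to the left on the right panel; MNDA in HNT-34 lies closest to KG1a.

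Interferon-stimulated genes were higher in KG1a than in each line for 24 of 76 tested members (31.6%, against 9.89% of all genes) and lower for 4 (5.26%, against 9.82%). Against the mean of the other lines, 45 members were higher and 18 lower. The median difference was 0.47, against -0.06 over all genes, and it was 0.24 against AML-193, 0.25 against HNT-34 and 0.78 against HL60. With housekeeping centring the counts were 18 and 8. RSAD2, the antiviral enzyme viperin, read 12.07 and 12.12 in KG1a against 7.02 and 7.15 in HNT-34 and 4.91 to 5.34 in the others, a difference of 6.35 ± 0.12 (SE). CMPK2, a mitochondrial nucleotide kinase that lies beside RSAD2, read 13.08 and 13.32 in KG1a, 10.10 and 10.31 in HNT-34, 7.69 and 7.996 in HL60 and 4.87 and 4.89 in AML-193. The pair was thus highest in KG1a and second highest in HNT-34.

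Other members higher than each line included EPSTI1, at 10.32 and 10.75 against 5.56 to 5.98, and TNFSF10, the death ligand TRAIL, at 11.41 and 11.67 against 6.16 to 8.82. The guanylate-binding proteins GBP1 and GBP2 were higher by 4.01 ± 0.10 and 2.60 ± 0.07 (SE). The RNA-binding effectors IFIT1, IFIT2 and IFIT3 were higher by 2.07, 2.10 and 1.30, and RTP4, a receptor transporter protein, by 2.55. IFITM1, which blocks virus entry, was bright in KG1a, AML-193 and HNT-34, with differences of 1.12 and 0.23 from the latter 2 and 5.10 from HL60. Not all of the programme followed. The 4 members lower than each line were OAS3 at -1.77 and OAS1 at -0.71, which make the activator of RNase L, the transcription factor IRF7 at -0.77, and the RNA helicase DHX58 at -0.59. The receptor chain genes IFNAR1, at -0.84, and IFNAR2, at 0.37, were not called against each line, and their probe sets differed in sign, from -0.84 to 0.23 and from -0.69 to 0.37. Of 39 genes of nucleic acid sensing and interferon signalling, 7 were higher (17.9%) and 5 lower (12.8%), led by IFI16 at 1.69 and TBK1 at -1.28. With housekeeping centring 2 were higher and 11 lower.

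The interferon-stimulated response element, bound by the interferon-activated factor ISGF3 and by other IRF proteins, has a core written here as GAAANNGAAA, with N for any base. It was searched on both strands in the 250 bases before each RefSeq gene start (GRCh38.p14). It stood in 839 of 27305 promoters (3.07%). Among the listed interferon genes with a promoter in the table it stood in 10 of the 20 that were higher than each line (50%) and in 22 of the 37 others (59.5%). The 995 genes higher than each line outside the list held it in 24 cases (2.41%), against 260 of 11212 tested genes (2.32%). A shorter core with 1 base fewer between the GAAA repeats, GAAANGAAA, was added after the sequences were seen. It stood in 754 promoters (2.76%), in 3 of the 20 (15%) and in 13 of the 37 (35.1%). RSAD2 had 4 matches to the shorter core and none to the longer, and CMPK2 had neither in this window. The sequences below show the motif in capitals in 4 genes that were higher than each line; EPSTI1 (chr13:42992242-42992491, minus strand) and RTP4 (chr3:187368135-187368384, plus strand) are the 250 bases before the start, with no annotated gene in either interval. The IFIT1 stretch (chr10:89392504-89392533, plus strand) lies 119 to 90 bases before its start and within the LIPA gene, with the core read on the other strand, and the RSAD2 stretch (chr2:6865815-6865844, plus strand) lies 70 to 41 bases before its start and overlaps the annotated CMPK2 gene.
EPSTI1: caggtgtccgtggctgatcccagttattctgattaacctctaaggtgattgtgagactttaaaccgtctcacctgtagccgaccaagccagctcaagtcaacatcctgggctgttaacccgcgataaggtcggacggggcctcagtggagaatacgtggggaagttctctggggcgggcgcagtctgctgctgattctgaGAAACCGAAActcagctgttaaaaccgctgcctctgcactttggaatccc
RTP4: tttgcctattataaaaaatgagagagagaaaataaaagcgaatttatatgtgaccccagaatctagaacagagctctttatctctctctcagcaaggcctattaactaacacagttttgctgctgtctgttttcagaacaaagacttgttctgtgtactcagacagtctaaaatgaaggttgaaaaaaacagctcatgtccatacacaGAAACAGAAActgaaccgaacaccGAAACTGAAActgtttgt
IFIT1: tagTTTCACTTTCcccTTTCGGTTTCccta
RSAD2: gcgttgcgggGAAACGAAAgccggaggccc

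MHC class II presentation genes were higher in KG1a than in each line for 8 of 19 tested members (42.1%) and lower for none. The median difference was 0.38, but it was 0.67 with probe sets averaged, 0.62 with the integrity covariate, 0.17 with housekeeping centring and 2.79 when only bright genes were kept. The alpha chain gene HLA-DRA read 13.99 and 14.02 in KG1a, 11.94 and 12.00 in HNT-34, 6.20 and 6.30 in HL60 and 5.71 and 6.04 in AML-193. HLA-DPA1 read 13.36 and 13.38 in KG1a against 8.05 and 8.13 in HNT-34, 9.06 and 9.38 in AML-193, and 5.36 and 5.75 in HL60. HNT-34 was thus the next brightest line for HLA-DRA, and AML-193 for HLA-DPA1. The beta chain genes HLA-DPB1, HLA-DRB1 and HLA-DQB1 were higher by 4.72, 4.18 and 4.02, with the limit that probes for these genes can bind near-identical copies and depend on the line's alleles. The invariant chain CD74, which guides class II assembly, was higher by 3.09 ± 0.07 (SE), although its 3 bright probe sets ranged from -0.06 to 3.09. The peptide editors HLA-DMA and HLA-DMB were higher by 2.92 and 2.65. CIITA, the master activator of class II transcription, read 7.34 and 7.43 in KG1a against 7.03 to 7.53 and did not pass (difference 0.14 ± 0.08 SE, adjusted p = 0.173 in limma's test). Of 24 MHC class I presentation genes, 1 was higher than each line, PSME1 at 0.69, and 1 lower, HLA-E at -0.97.

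Genes typical of eosinophils, basophils and mast cells were the list with the highest share of members higher than each line, at 11 of 22 (50%), with none lower and a median difference of 0.73. With the RNA integrity covariate 7 were higher and 1 lower, and MHC class II, with 9 of 19 higher, then had the larger share. FCER1A, the alpha chain of the high-affinity IgE receptor, read 10.33 and 10.36 in KG1a against 4.18 to 4.62, a difference of 5.97 ± 0.06 (SE). ADCYAP1, the neuropeptide PACAP, read 11.03 and 11.17 against 5.04 to 5.80, a difference of 5.56 ± 0.10 (SE). Both genes were near background in all 3 other lines. GATA2, the transcription factor of progenitors and mast cells, read 12.03 and 12.09 in KG1a, 10.73 and 10.79 in HNT-34, 9.14 and 9.15 in HL60, and 7.03 and 7.15 in AML-193. The 3 bright probe sets of GATA2 ranged from 0.68 to 3.07. The granule genes differed less. CLC, the Charcot-Leyden crystal protein, was higher by 1.58, the histamine-forming enzyme HDC by 1.04, and the tryptase TPSB2, near-identical to TPSAB1, by 0.66. PRG2, the major basic protein of eosinophil granules, read 7.77 and 7.91 in KG1a, a difference of -1.65 from the mean of the other lines. KG1a lay below AML-193, below HL60 at 12.59 on both arrays, and above HNT-34 at 6.90 and 6.92.

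Erythroid genes were higher than each line for 7 of 32 members (21.9%) and lower for 3 (9.38%), and the counts were 4 and 6 with housekeeping centring. Beside RHAG, the delta-globin gene HBD was higher by 4.91 ± 0.08 (SE), the Kell-associated XK by 4.46 and HEMGN, a nuclear protein of erythroid progenitors, by 3.69. The adult beta-globin gene HBB read 7.93 and 8.15 in KG1a against 8.02 to 8.31 and did not pass (adjusted p = 0.219 in limma's test). ICAM4, a red cell adhesion protein, was among the lower ones, with a log2 difference of -3.52. Of 36 megakaryocyte and platelet genes, 7 were higher (19.4%), led by GNG11, CD226 at 3.22 and P-selectin, SELP, at 2.24, and 3 were lower (8.33%), led by thromboxane synthase, TBXAS1, at -2.07. GATA1, the factor of the erythroid and megakaryocytic lineages, read 8.01 and 8.21 against 7.96 to 8.15 and did not pass (difference 0.05 ± 0.07 SE).

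Stem and progenitor genes were higher than the mean of the other lines for 28 of 38 members and lower for 3, with a median difference of 1.25. The distance depended on the line, with medians of 2.00 against AML-193, 1.80 against HL60 and -0.18 against HNT-34. Against each line, 9 were higher (23.7%) and 1 lower (2.63%), and against AML-193 and HL60 without HNT-34 the first count was 26. HOPX, a homeodomain protein without DNA binding, read 13.72 and 13.87 in KG1a, 12.52 and 12.65 in HNT-34, and 5.30 to 6.55 in the others. CD34 was higher than HNT-34 by only 0.81, but by 4.78 and 4.91 than AML-193 and HL60. CD38, an ectoenzyme that appears as progenitors leave the most primitive stage, read 11.93 on both KG1a arrays against 6.57 to 7.32. CD34 and CD38 were thus both highest in KG1a. SOX4 was higher by 2.64, although its 5 bright probe sets ranged from 0.21 to 2.64. MLLT3, which sustains stem cell self-renewal, was higher by 2.46. PROCR, the endothelial protein C receptor used to mark stem cells, was the member lower than each line, at -2.31.

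Among 54 blood transcription factors, 5 were higher (9.26%, against 9.89% of all genes) and 8 lower than each line (14.8%, against 9.82%). With at least a 2-fold difference from every line, 5 were higher and 6 lower, against 2.79% and 1.47% of all genes. With housekeeping centring the counts without a fold limit were 5 higher and 14 lower. ZBTB16, the zinc finger protein PLZF, read 12.13 and 12.34 in KG1a against 5.48 to 8.57, and IKZF2, or Helios, was higher by 3.87. GFI1, a repressor needed for neutrophil formation, read 8.31 and 8.49 against 10.68 to 12.80. CEBPA, the granulocytic master factor, was lower than each line, at -1.63 from the mean, -0.49 from HNT-34 and -2.31 from HL60. RUNX2 at -3.19 and ID2 at -2.57 were also lower than each line, but the 3 bright probe sets of RUNX2 ranged from -3.19 to 0.76. SPI1, or PU.1, read 9.01 and 9.04, between HNT-34 at 8.74 and 8.75 and HL60 at 9.74 and 9.80. Of 16 HOX genes, 10 were lower than the mean and 1 higher, against 33.6% and 27.2% of all genes. The median difference was -0.705 against HNT-34, but -0.14 against AML-193 and -0.17 against HL60. HNT-34 was the highest line for 10 of the 16. The mean level was 6.80 to 6.87 in KG1a and 6.80 to 6.84 in HL60, near background. HOXB4 at -1.04 was the only member lower than each line (6.25%, against 9.82% of all genes).

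Neutrophil granule genes were lower than the mean of the other lines for 26 of 31 members and higher for 1, CLC, with a median difference of -1.54. The list also holds the oxidase subunit genes NCF1 and NCF4, and CLC is in the mast cell list as well. Only 3 members were lower than each line (9.68%), NCF1, CEACAM6 at -3.66 and NCF4 at -1.59. The median was -2.17 against AML-193, -1.43 against HL60 and 0.00 against HNT-34. The count lower than each line was 15 with housekeeping centring and 20 without HNT-34. CEACAM6 differed from HNT-34 by only -0.37, with both lines near background. MPO, the granule peroxidase, read 6.55 and 6.94 in KG1a, 5.80 and 5.996 in HNT-34, 10.56 and 10.57 in AML-193, and 14.36 and 14.45 in HL60. ELANE, neutrophil elastase, read 5.18 and 5.34 against 5.40 and 5.71 in HNT-34 and 9.46 to 11.50 in the other lines. KG1a and HNT-34 were thus both near background for ELANE, while AML-193 and HL60 were bright. CEBPE, a factor of late granule formation, followed at -2.79 from AML-193, 0.04 from HNT-34 and -4.84 from HL60. Of 43 monocyte and macrophage genes, 8 were higher and 23 lower than the mean, and 4 higher (9.30%) and 3 lower (6.98%) than each line. The last 2 counts were 3 and 13 with housekeeping centring and 4 and 18 without HNT-34. The integrin alpha M gene ITGAM was among the higher ones at 2.31, with its 2 bright probe sets at -0.16 and 2.31.

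T and NK cell genes were higher than each line for 13 of 41 members (31.7%) and lower for 3 (7.32%), with a median difference of 0.39. The median was 0.01 with no filter on dim genes and 0.06 without HL60, and keeping only bright genes lowered the higher count to 8. CD96, an adhesion receptor of T and NK cells that also marks leukaemic stem cells, read 12.11 and 12.17 in KG1a and 10.09 and 10.24 in AML-193, and 6.40 to 6.48 in the others. PRF1, perforin, read 11.39 and 11.40 against 7.16 to 8.63. The shared cytokine receptor chain IL2RG was higher by 2.78, TRAT1 by 2.69 and the kinase ZAP70 by 1.81, although TRAT1 read only 6.65 and 6.81 in KG1a, near background. CD3D, a T cell receptor chain, was called higher at 0.82, but at 7.37 and 7.45 it lay little above the array median. The 3 lower members were NCAM1, or CD56, at -3.66, CD4 at -1.94 and LAT at -0.61. NCAM1 differed from HL60 by only -0.61, with both lines near background, and its 4 bright probe sets ranged from -3.66 to -0.48. GATA3 read 6.06 and 6.20, near background, as in HNT-34 and HL60, while AML-193 read 9.10 and 9.16. Of 26 B cell genes, 5 were higher (19.2%) and none lower than each line, CD37 at 2.19, VPREB1 at 2.01, BANK1 at 2.00, CD79B at 0.98 and IGHD at 0.89. VPREB1 read only 6.81 and 6.94 in KG1a, near background, and passed the filter through these arrays alone. The 4 bright probe sets of IGHD ranged from -0.30 to 1.93.

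**Figure D3:**
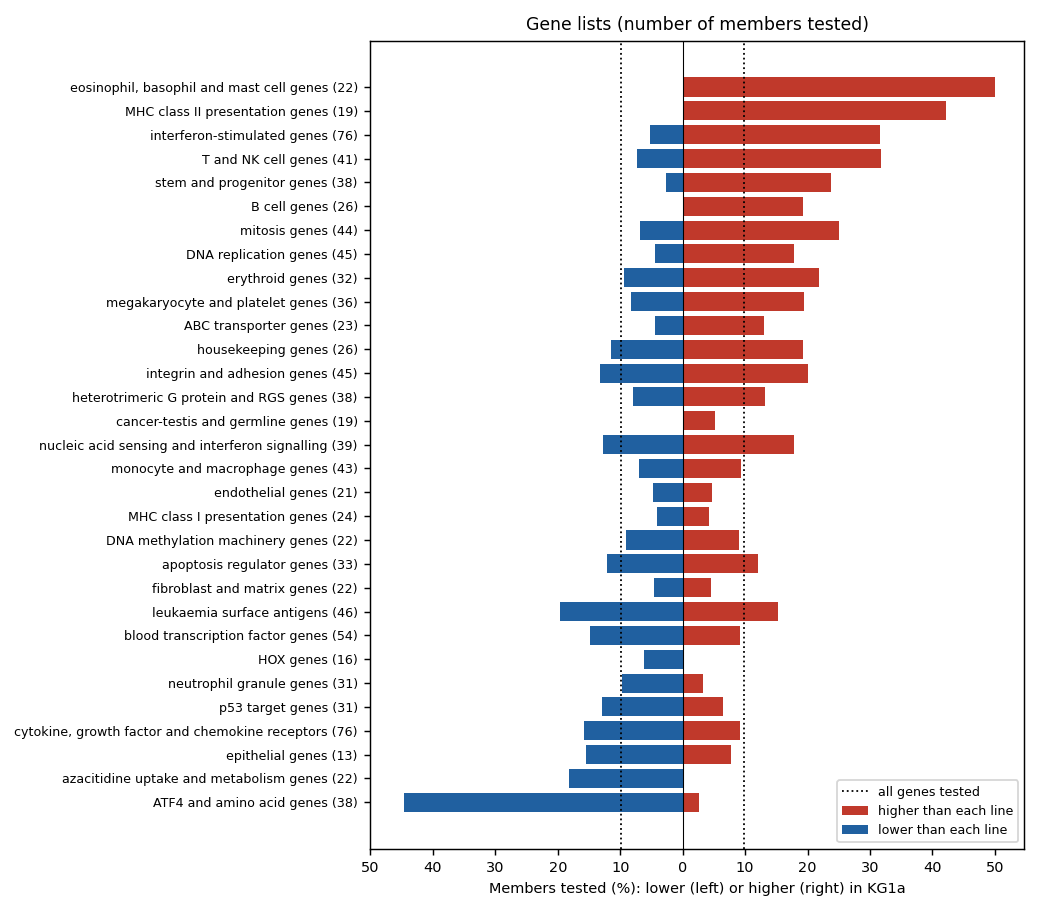
Share of each gene list's tested members that were higher (red, right) or lower (blue, left) in vehicle KG1a than in each of the 3 other lines, in percent, with the number of members tested in brackets. Dotted lines give the shares over all 14038 genes, 9.89% and 9.82%; mast cell, MHC class II, T and NK cell and interferon lists extend farthest to the right and the ATF4 list farthest to the left. The 6-member CAP superfamily list is not drawn.

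Receptors and adhesion genes were mixed. Of 76 cytokine, growth factor and chemokine receptors, 7 were higher (9.21%) and 12 lower than each line (15.8%). FGFR1, a receptor tyrosine kinase, read 10.93 and 11.08 in KG1a against 7.07 to 8.44, a difference of 3.35 ± 0.15 (SE), and its 6 bright probe sets ranged from -0.19 to 3.51. IL18RAP, an interleukin receptor chain, read 12.55 and 12.72 in KG1a, 11.27 and 11.42 in AML-193, and 6.83 to 8.01 in the others. IGF1R read 6.52 and 6.53 against 8.81 to 10.24, a difference of -2.96, and IL10RA and TNFRSF1B differed by -3.04 and -2.86. The stem cell factor receptor KIT read 8.99 and 9.16, below HNT-34 at 10.73 and 10.84 and above HL60 and AML-193. FLT3 read 7.65 and 7.81, above AML-193 and below HNT-34 and HL60. Of 46 leukaemia surface antigens, 7 were higher (15.2%) and 9 lower (19.6%), among the latter CCR1 at -1.84 and IL1RAP at -1.81. Of 45 integrin and adhesion genes, 9 were higher (20%), with SELP and the integrin alpha L gene ITGAL at 2.15, and 6 lower (13.3%). With housekeeping centring 5 were higher and 9 lower, and the median turned from 0.07 to -0.14.

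Of 38 heterotrimeric G protein and RGS genes, 5 were higher (13.2%) and 3 lower (7.89%). Beside GNG11, the gamma subunit gene GNG2 was higher by 3.73, although by only 0.40 than AML-193, and GNG7 by 2.14. ABC transporter genes were higher for 3 of 23 (13%), ABCB1, ABCA2 at 1.68 and ABCC10 at 0.68, and lower for 1 (4.35%), the vault protein MVP at -0.95. Of 6 CAP superfamily genes tested, CRISPLD1 was the one higher than each line and GLIPR1, at -0.53, the one lower.

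The enzymes of DNA methylation, on which azacitidine acts, differed by unlike amounts. DNMT1, the maintenance methyltransferase, read 11.54 and 11.73 in KG1a against 11.38 to 11.57 and did not pass (difference 0.16 ± 0.08 SE, adjusted p = 0.0866 in limma's test). DNMT3A, a de novo methyltransferase, read 7.62 and 7.66 against 8.10 to 10.56, a difference of -1.90, with its 3 bright probe sets from -1.90 to 0.08. DNMT3B read 11.41 and 11.58, below HNT-34 at 12.11 and 12.32 and above AML-193 and HL60. Of 22 such genes, 2 were higher than each line (9.09%), the dioxygenase TET1 at 1.22 and the methyl-DNA reader ZBTB33 at 0.40, and 2 lower (9.09%), DNMT3A and the S-adenosylmethionine synthetase gene MAT2A at -0.65. Of 22 genes of azacitidine uptake and metabolism, none was higher and 4 were lower than each line (18.2%). CDA, cytidine deaminase, which inactivates the drug, read 5.89 and 6.55 in KG1a against 7.59 to 10.96, a difference of -2.86 ± 0.17 (SE). DCTD was at -0.88 and UCKL1 at -0.67, and RRM1 at -0.32 turned to 0.21 when its probe sets were averaged. Deoxycytidine kinase, DCK, read 11.06 and 11.22 against 9.99 to 11.09, and the nucleoside transporter SLC29A1 did not pass (-0.12 ± 0.18 SE). SAMHD1, a nucleotide triphosphohydrolase, read 8.05 and 8.07, above HNT-34 at 6.84 and 6.87 and below AML-193 and HL60, with log2 differences of -4.43 and -3.20.

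Genes of the ATF4 response, which raises amino acid synthesis and transport when amino acids are short or proteins misfold, were the list with the highest share of members lower in KG1a. Of 38 members, 17 were lower than each line (44.7%, against 9.82% of all genes) and 1 higher (2.63%). Against the mean, 32 were lower and 4 higher, with a median difference of -0.70. TRIB3, a pseudokinase induced by ATF4, read 9.79 and 9.80 in KG1a against 12.44 to 12.97, with differences of -2.84, -3.16 and -2.72 from AML-193, HNT-34 and HL60. ASNS, asparagine synthetase, read 10.19 and 10.21 in KG1a, 11.01 and 11.15 in AML-193, and 12.85 to 13.77 in the others. The activin subunit gene INHBE was at -2.69, the mTORC1 inhibitor DDIT4 at -2.46, ATF5 at -2.32 and JDP2 at -2.004, and ATF4 itself, which is controlled largely at translation, at -0.43. The enzymes of serine synthesis, named after their values were seen, did not follow. PSAT1 read 12.43 and 12.81 in KG1a and 13.07 and 13.12 in HL60, against 6.73 to 7.43 in AML-193 and HNT-34, and PHGDH had the same order, with HL60 highest and KG1a second. ALDH18A1, of proline synthesis, was the member higher than each line, at 0.99.

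The remaining lists concern growth, death and other tissues. Of 31 p53 target genes, 2 were higher than each line (6.45%), SESN1 at 1.71 and ZMAT3 at 1.64, and 4 lower (12.9%), led by the cell cycle inhibitor CDKN1A at -1.87. Of 33 apoptosis regulators, 4 were higher (12.1%), led by CASP6 at 1.80, and 4 lower (12.1%), led by the TRAIL decoy receptor TNFRSF10D at -2.66. Mitosis genes were higher for 11 of 44 (25.0%) and lower for 3 (6.82%), with the kinesin genes KIF18A at 1.11 and KIF14 at 1.06 foremost, but the counts were 4 and 3 with the integrity covariate and 4 and 7 with housekeeping centring. Without HNT-34 they were 12 and 8, and the median turned from 0.22 to -0.04. DNA replication genes were higher for 8 of 45 (17.8%) and lower for 2 (4.44%), led by GINS4 at 1.69 and the helicase subunit MCM4 at 1.05, and with housekeeping centring 2 were higher and 5 lower, with the median turned from 0.10 to -0.11. With the integrity covariate 3 were higher and 1 lower. Of 19 cancer-testis and germline genes tested, 1 was higher, KDM5B at 0.99, and none lower. For genes of other tissues the counts below stand beside 9.89% higher and 9.82% lower over all genes. They compare lines and do not say whether a gene was dim. Epithelial genes were higher for 1 of 13 (7.69%) and lower for 2 (15.4%), fibroblast and matrix genes for 1 and 1 of 22 (4.55% each) and endothelial genes for 1, GNG11, and 1, ENG, of 21 (4.76% each). Among 26 housekeeping genes, 5 were higher (19.2%) and 3 lower (11.5%).

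The genes higher than each line were spread unevenly over the chromosomes, an analysis chosen after values were seen. On chromosome 8, 182 of 485 genes were higher (37.5%) and 9 lower (1.86%), and 48 were at least 2-fold higher. The median difference there was 0.49, with 0.29 against AML-193, 0.23 against HNT-34 and 0.81 against HL60, and 335 of the 485 genes lay above 0. Taken in gene order and divided into 5 groups of about equal size, the share rose from 9.28% in the first group to 37.1%, 56.7%, 52.6% and 32.0%. On the other autosomes and chromosome X together, 1195 of 13514 genes were higher (8.84%). CRISPLD1, FGFR1, MCM4 and GINS4 lie on it. Genes lower than each line took 23.3% of chromosome 7 (151 of 648), 20.3% of chromosome 5 (124 of 610) and 17.4% of chromosome 12 (132 of 757). On chromosome 7 the shares in gene order were 8.46%, 10.8%, 35.4%, 37.2% and 24.8%. DNA copy number was not measured in these files, and its part in these shares was not tested.

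**Figure D4:**
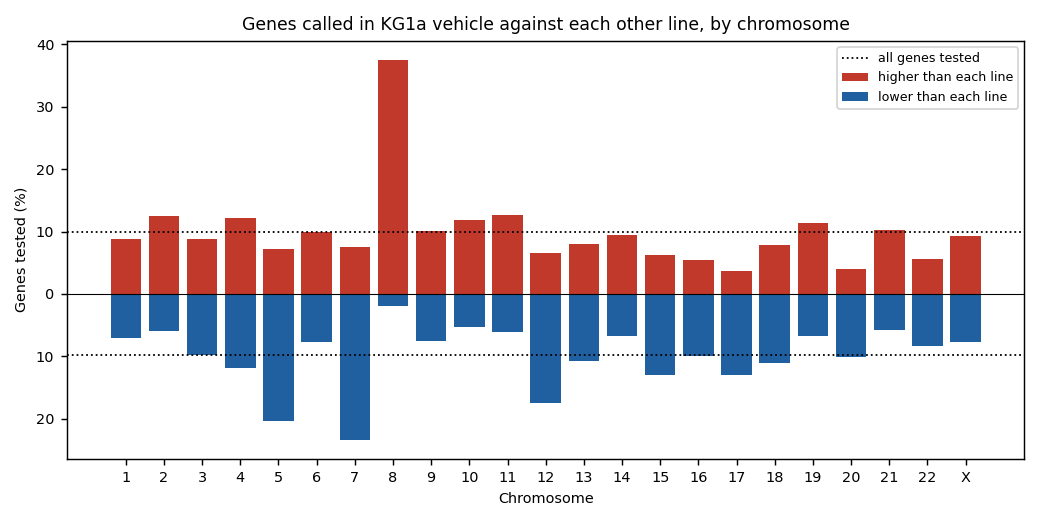
Share of the genes tested on each chromosome that were higher (red, upward) or lower (blue, downward) in vehicle KG1a than in each other line, in percent, with the shares over all genes as dotted lines. Chromosome 8 reaches 37.5% upward, and chromosomes 7, 5 and 12 reach farthest downward.

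Some genes were high together with their neighbours. Of 384 placed genes at least 2-fold higher than each line, 89 (23.2%) had another such gene within 200 kb, against 1501 of 13626 other genes (11%). For genes 2-fold lower the figures were 30 of 206 (14.6%) and 928 of 13804 (6.72%). Of the groups of genes 2-fold higher, 8 lay on chromosome 8, and the 3 with the most genes were among these: KAT6A, AP3M2, POLB and SMIM19, then ENPP2, TAF2, DSCC1 and DEPTOR, and ZNF572, SQLE, WASHC5 and NSMCE2. Elsewhere the groups included GBP1, GBP2 and GBP4 on chromosome 1, IFIT1, IFIT2 and IFIT3 on chromosome 10, CMPK2 and RSAD2 on chromosome 2, and C6orf141, RHAG and PGK2 on chromosome 6. The class II genes formed 2 groups, HLA-DRA, HLA-DRB1 and HLA-DQB1, and HLA-DMB, HLA-DPA1 and HLA-DPB1, and ABCB1 lay beside RUNDC3B on chromosome 7.

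The AZA arrays share no array with the vehicle comparison, so they repeat it in treated cells of the same 4 lines. In them 8340 genes (59.4%) differed between KG1a and the mean of the others. Of the 8527 genes called with vehicle, 6870 (80.6%) were called in the same direction with AZA and 96 in the opposite one. Of the 1388 higher than each line, 1338 (96.4%) were called higher again, against 26.2% of all genes. Of the 1378 lower, 1308 (94.9%) were called lower again, against 33.2% of all genes. All 391 and all 206 genes with a 2-fold difference from each line were called again in the same direction. Both KG1a AZA arrays lay beyond all 6 other AZA arrays for all 12 leading genes higher in KG1a and for 11 of the 12 leading genes lower in it. The share of all genes placed so was counted only for the vehicle arrays, at 13.6% and 15.6%. Nothing is read from these counts, since the genes were chosen by that placement with vehicle.

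The size of the difference changed with AZA for 1372 genes (9.77%) in limma's test of that change, 691 upward and 681 downward; this comparison uses the vehicle arrays again, and the shares of all genes were 4.92% and 4.85%. The count fell to 718 without the first and to 722 without the second KG1a AZA array. AZA raised 6.56% and lowered 3.37% of all genes in KG1a, against 20.7% and 20.3% in AML-193, 15.4% and 14.8% in HNT-34 and 25.2% and 16% in HL60. The 3′ minus 5′ control signal went from 1.27 ± 0.46 with vehicle to 0.20 ± 0.04 with AZA in AML-193 (SD, n = 2). In HL60 it went from 0.04 ± 0.01 to 0.72 ± 0.16 (SD, n = 2). It was 0.03 and 0.06 in KG1a and -0.003 and -0.10 in HNT-34. What these shifts add to the AZA shares of each line was not tested. With this signal as a covariate, the KG1a difference changed for 1478 genes. Of the ATF4 list, 29 of 38 members changed upward and 1 downward. Its median difference went from -0.70 with vehicle to -0.06 with AZA. The median change with AZA was -0.18 in KG1a, -0.73 in AML-193, -1.23 in HNT-34 and -0.81 in HL60. TRIB3 read 10.22 and 10.23 in AZA-treated KG1a and 10.45 to 11.57 in the other treated lines, so its difference narrowed from -2.91 to -0.87. ASNS changed by -0.52 in KG1a, -2.59 in AML-193, -2.09 in HNT-34 and -1.29 in HL60 on the log2 scale.

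The differences of the mast cell and eosinophil list also moved upward, for 12 of 22 members against 4 downward, but away from 0, with a median of 0.73 with vehicle and 2.54 with AZA. FCER1A read 12.64 and 12.68 in AZA-treated KG1a against 4.34 to 5.43 in the others, a change of 1.93 ± 0.09 (SE). HDC read 10.67 and 10.81 against 6.31 to 8.61, and TPSB2 9.54 and 9.63 against 6.42 to 6.76. For these 3 genes KG1a had led with vehicle and led by more with AZA. CLC rose in KG1a by 4.42 and in HL60 by 6.60, so treated HL60, at 13.14 and 13.31, stood above treated KG1a at 11.99 and 12.06. HPGDS went from 6.23 to 5.79 as it rose in HNT-34 by 1.95.

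**Figure D5:**
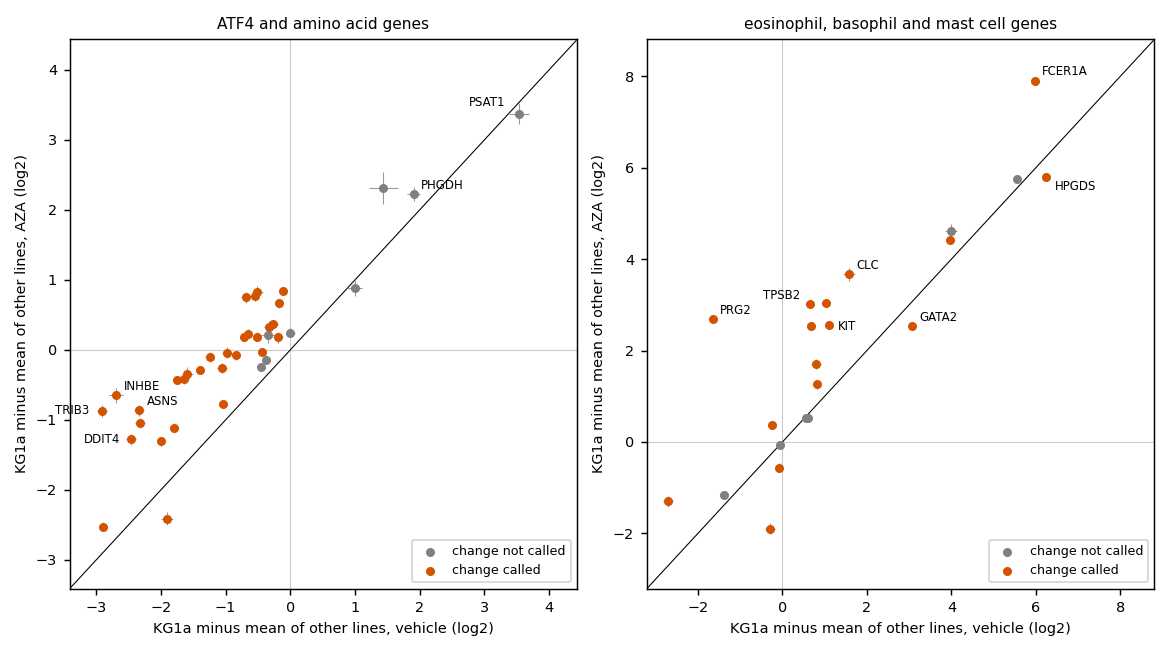
Log2 difference between KG1a and the mean of the other 3 lines with vehicle (horizontal axis) and with AZA (vertical axis), 1 point per gene, for the ATF4 list (left) and the eosinophil, basophil and mast cell list (right). Bars are standard errors, the line marks equal differences, and orange points changed with AZA in limma's test; 29 of 38 points on the left lie above the line and were called, as do 12 of 22 on the right.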

How the data were processed

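RNA of 16 samples, 4 lines with vehicle or AZA and 2 arrays a group, was measured on 1-colour arrays. The authors deposited log2 signals per probe set, and affy and RMA are named in the submitters' processing notes; the order of steps is not given in the sources used here. The log base was read from the values, which ran from 3.26 to 15.34, and all arrays had the same quantiles within 0.000953. Of 54675 probe sets, 62 were controls, 41097 named 1 gene, 1801 several and 11777 none; those with several or none were not named. Symbols were matched to the GRCh38.p14 RefSeq table for 41043 probe sets. Each of 19775 genes was represented by its brightest probe set across the 16 arrays, and 14038 genes that reached their array's median on at least 2 arrays were tested. Means of 8 groups were fitted with limma 3.58.1 in R 4.3.3 (lmFit, eBayes, 8 residual and 4.8 prior degrees of freedom), with Benjamini-Hochberg adjustment over all genes at 0.05. The fit was tested on simulated data.

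Genes were named by a rule: the 12 largest differences in each direction among genes called against each line whose KG1a arrays lay outside all others, up to 6 such members of each list, a set of 34 genes of interest and the 6 largest changes with AZA in each direction. Some genes of that set, CD33, PROM1 and UCK2 among them, are not reported here. X-inactivation and Y-linked genes were left out of naming. The comparison, members and lists were chosen with earlier results of these data known. Lists are described by counts and medians, without a test of the list. Replicate numbers follow sample order and pair nothing. Alternatives changed the samples in the fit, the filter, the probe set rule, the scaling, an integrity covariate, the lines and the arrays. The number of arrays limits the precision.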

Additional observations from a re-analysis of the deposited data

Results flagged for a closer look

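Of 185 named genes, 73 had a KG1a difference that changed between vehicle and AZA in limma's test of the change, 33 upward and 40 downward. Over all genes tested the share that changed was 9.77%. Some named genes were chosen for this change and others for large vehicle differences, which the change subtracts. For that reason nothing is read from the count of 73. Described here are 24 of the 73, those among the genes leading the vehicle comparison and those with the largest changes. Their adjusted p-values in that test were at most 0.0333. The values are changes of a log2 difference, AZA minus vehicle. Of the 24 leading genes of the vehicle comparison, which were called against each line with KG1a outside all other arrays, 12 changed. For 11 of these the difference narrowed. The genes were chosen for large vehicle differences, and the change subtracts those same vehicle values. The choice itself thus favours narrowing, and nothing is read from that count. The change was -1.88 for RHAG, -1.72 for LOC105377276, -1.11 for C6orf141, -0.86 for CYP1B1, -0.73 for RSAD2, -0.65 for GNG11, -0.61 for ABCB1 and -0.44 for HPGDS. RHAG rose by 3.72 and LOC105377276 by 3.303 in HNT-34 with AZA, while C6orf141 moved by -1.15 in KG1a. Among the genes lower in KG1a it was 0.58 for TOB1, 0.51 for DIAPH2 and 1.30 for APOBEC3B. FCER1A was the one whose difference widened, by 1.93.

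The largest upward changes over all genes were 4.33 for the eosinophil granule gene PRG2, 4.14 for COL14A1, 2.80 for MS4A3, 2.67 for CSTA, 2.48 for TCN1 and 2.35 for TPSB2. PRG2 rose by 5.96 in KG1a, 2.42 in HNT-34 and 2.55 in HL60, with a value of -0.05 in AML-193. COL14A1 rose by 6.77 in KG1a and by 4.88 in HL60. The largest downward changes were -3.01 for DCAF4L1, -2.76 for PPBP, -2.21 for GCNA, -2.08 for TKTL1, -1.91 for S100A12 and -1.91 for MAGEA4. TKTL1 rose by 6.11 in HL60 and MAGEA4 by 5.21 in HNT-34, while their values in KG1a were 0.15 and 0.14.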

How the results depend on the processing

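Housekeeping centring left 822 genes higher and 2674 lower than each line. Dropping AML-193 from the lines compared gave 2102 lower genes and 2113 changes with AZA, and dropping HNT-34 gave 5025 genes, 2392 higher and 2633 lower; a call against 2 lines asks less than one against 3. Leaving out 1 array at a time gave 7465 to 8686 genes against the mean, 2457 to 2739 against each line (1232 to 1366 higher, 1201 to 1374 lower) and, among AZA results, 6688 to 8580 genes against the mean and 718 to 1546 changes. The 2 lowest counts of changes, 718 and 722, came without the first and without the second KG1a AZA array. Of 185 named genes, 6 reversed under an alternative: RRM1 (0.21) and IFNAR2 (-0.25) with probe sets averaged, KIT (-0.33) and GATA3 (0.33) without AML-193, CD7 (0.11) without HNT-34 and FLT3 (0.055) without HL60. Of the 158 named genes called against each line, 29 lost that call with the integrity covariate, 21 with probe sets averaged, 19 with housekeeping centring and 18 without the first KG1a vehicle array. The cause was not tested. Dim genes have compressed differences. No paired analysis was possible because the labels carry no replicate numbers.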
